A study of Mus musculus with 74 samples.

Results

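Nanog/Otx2 SunTag cells are mouse embryonic stem (ES) cells, derived from the E14Tg2a line, in which doxycycline (Dox) switches on the transcription of endogenous Nanog and Otx2 together. The RNA libraries of these cells grown with leukaemia inhibitory factor (LIF) were taken by their condition, 4 with Dox and 3 without, which makes 7 of the 35 RNA libraries in the count table and 7 of the 74 samples in the labels. They were compared with and without Dox to ask which genes change when both factors rise in self-renewing cells. All 7 came from cells in medium with 10% foetal calf serum and LIF at 10 ng/ml, and the induced cells had Dox at 1 µg/ml for 3 days. Every cell, induced or not, carries the SunTag construct under a tetracycline-responsive element (a dCas9 with GCN4 epitopes and an antibody fragment fused to the VP64 activator), the rtTA transactivator, and guide RNAs against the promoters of Nanog and Otx2. There were 2 lines, C1ON3 and C2ON3, each of them 1 clone picked after its induction of both genes was checked and each derived from a separate Nanog SunTag clone. C1ON3 gave 2 libraries with Dox and 2 without, and C2ON3 gave 2 with Dox and 1 without. No library with Dox from cells lacking guides was used here, so an effect of Dox or of SunTag expression and an effect of Nanog and Otx2 cannot be told apart.

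Nanog is a homeodomain factor of the naive pluripotent state, where it supports self-renewal. Otx2 is a homeodomain factor that ES cells take up as they leave the naive state for the formative and primed epiblast, and that later patterns the anterior brain. LIF signals through its receptor, the JAK kinases and Stat3 to hold ES cells in self-renewal, and Nanog lowers Otx2 transcription, so a rise of both factors with LIF present joins a naive regulator to a regulator of the exit from that state.

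The sites of the guide RNAs are shown because they define what was switched on. Each is given 5′ to 3′ as read from the mm9 genome, on the strand that the guide matches, with the protospacer adjacent motif in capitals.
Nanog: cttcccactagagatcgccaGGG
Otx2: aatgtagagcgtgcatttggAGG
The Nanog site lay on the + strand of chr6:122657269-122657291, outside the gene, with its midpoint 229 bases upstream of the annotated gene start. The guide oligo carries 1 added g at its 5′ end. The Otx2 site lay on the - strand of chr14:49282646-49282668, within the span of the gene but in no exon, 111 bases upstream of the nearest of 8 annotated transcript starts. Each guide matched its own chromosome once next to an NGG motif.

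The 7 libraries held 6107512 to 51380795 estimated counts. The shallowest was the only uninduced C2ON3 library, in which 3 counts are worth 13.9 normalised counts, and this is the most that a gene at 0 there could have had, for counting error alone. Levels are given as normalised counts (counts divided by a library size factor, not by gene length). The ES cell markers were high in every library, with Pou5f1 between 39698 and 47215 and Esrrb between 15800 and 19756 normalised counts. C2ON3 stood apart on chromosome 1: its genes there that averaged 100 or more normalised counts were higher than in C1ON3 by a median of 0.56 (log2) with LIF and 0.56 without LIF, against -0.04 to 0.09 on the other chromosomes with LIF. Since C2ON3 made up 1 of 3 uninduced and 2 of 4 induced libraries, 141 of the 859 tested genes on chromosome 1 counted as risen (16.4%, against 12.9% of all tested genes) and 24 as fallen (2.79%, against 10.0%), with a median of 0.11, and with the clone as a block 213 rose and 161 fell, with a median of 0.01. Among the genes named in the text, Hmcn1, Spna1, Prdm14, Tfcp2l1, Fn1, Lefty1, Col3a1 and Inhbb lie on chromosome 1. In bulk RNA, fewer cells of a type and less RNA per cell cannot be told apart. Nothing in the labels says that libraries of a clone were separate cultures, so p-values measure only the spread between these samples.

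Both targeted genes rose with Dox. Otx2 was at 1062, 1059 and 736 normalised counts without Dox and at 3806, 3546, 3471 and 3214 with Dox, which gave a log2 fold change of 1.88 (SE 0.16, adjusted p = 7.83e-06). The induced libraries stood well above the uninduced ones in both clones. Nanog was at 20533, 18320 and 19586 normalised counts without Dox and at 45942, 48558, 40628 and 41133 with Dox, with no overlap. Its log2 fold change was 1.19 (SE 0.34, adjusted p = 0.0196), and it was not called when either uninduced C1ON3 library was left out (adjusted p up to 0.0768). With the clone as a block it was 0.00130.

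**Figure D1:**
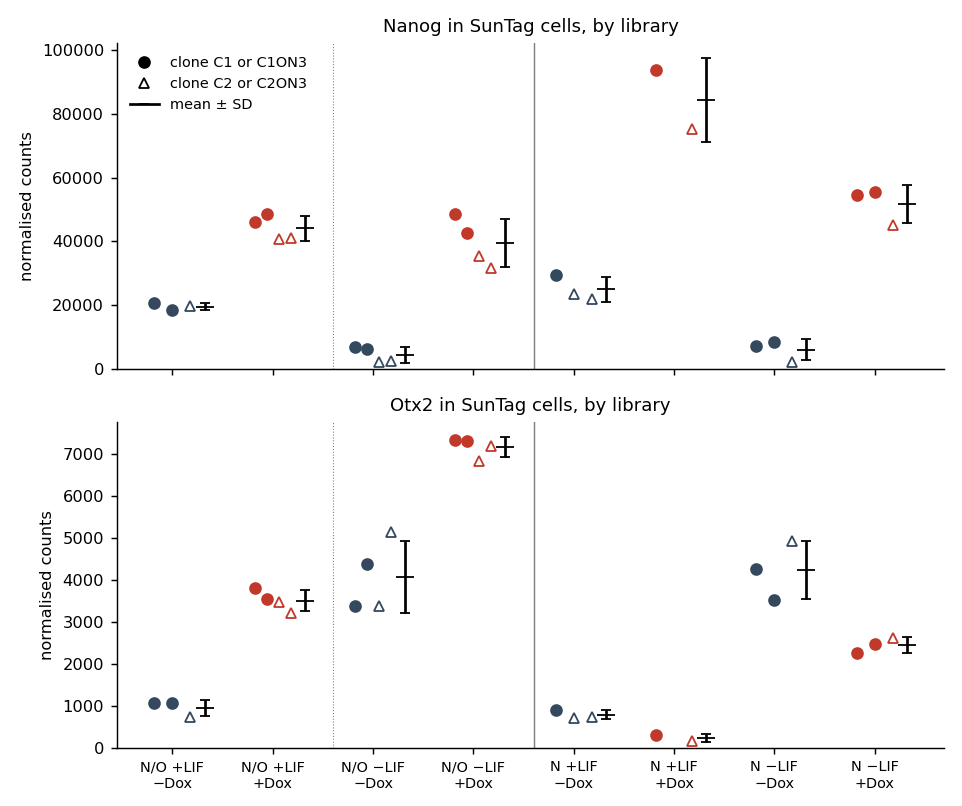
Normalised counts of Nanog (top) and Otx2 (bottom) in each library of the Nanog/Otx2 (N/O) and Nanog (N) SunTag cells, by LIF and Dox, with filled points for clones C1 and C1ON3, open triangles for C2 and C2ON3, and mean ± SD beside each group. In the N/O cells with LIF, the 4 induced libraries lie above the 3 uninduced ones for both genes.

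Levels before induction and the size of the induction differed with LIF. Without LIF, uninduced Nanog lay between 1974 and 6867 and uninduced Otx2 between 3372 and 5148 normalised counts, and with Dox they lay between 31697 and 48470 and between 6827 and 7347. The log2 fold change of Nanog was therefore 3.19 without LIF and that of Otx2 0.85, and the difference of the responses (with minus without LIF) was -2.0 for Nanog (adjusted p = 0.0104) and 1.02 for Otx2 (adjusted p = 0.00476). Induced Otx2 with LIF, at 3214 to 3806, overlapped with uninduced Otx2 after LIF removal.

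Over all genes, 2015 of 15609 tested rose (12.9%) and 1562 fell (10.0%), or 22.9% in either direction, by the quasi-likelihood test of edgeR, with p-values adjusted by Benjamini and Hochberg's method. The groups did not overlap for 31.9% of all tested genes, and 19.8% were called as well. Among called genes, the rises were larger and lay in less abundant transcripts. Of the 11178 genes with a mean of 100 or more normalised counts, 1045 rose and 1404 fell. Risen genes had a median log2 fold change of 1.10 and a median level of 107 normalised counts, and 1112 of them (55.2%) rose at least 2-fold, whereas fallen genes had a median of -0.45 at a level of 1456 and 260 (16.6%) fell at least 2-fold. Among the 10% of genes with the lowest level, 20.6% rose and 2.88% fell, while among the 10% with the highest level 1.09% rose and 24.7% fell. The share that rose among the lowest was 20.9% without the shallow C2ON3 library. With the clone as a block 3089 rose (19.8%) and 2742 fell (17.6%). Without the first uninduced C1ON3 library 1315 rose and 842 fell, and without the second 1165 rose and 797 fell.

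The 2 clones gave like directions. The sign was the same in both for 99.8% of the risen and 98.3% of the fallen genes, against 74.1% of all genes fitted in each clone, although these clones are themselves the samples that made the calls. A difference between the clones was called for 35 of 16695 genes (0.21%), 8 higher in C2ON3 (0.0479%) and 27 lower (0.162%), with 1510 at an unadjusted p under 0.05 and 112 called by DESeq2.

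**Figure D2:**
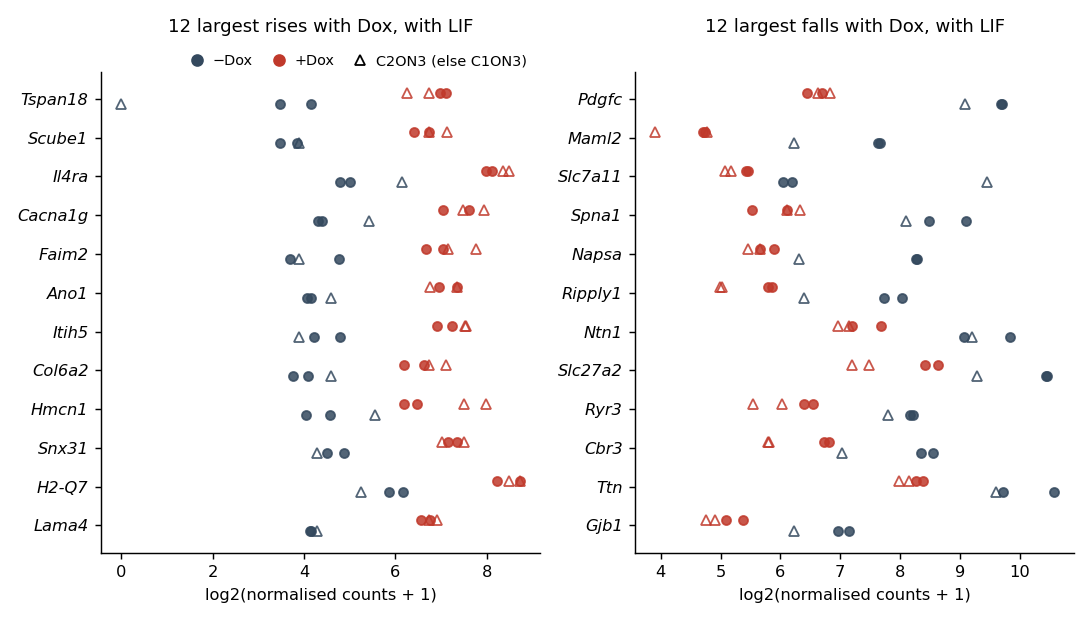
Levels as log2(normalised counts + 1) in each of the 7 libraries with LIF for the 12 largest rises (left) and the 12 largest falls (right), in blue without Dox and in red with Dox, with triangles for C2ON3 and circles for C1ON3. The groups do not overlap for any of the 24 genes, which was part of how they were chosen.

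The 12 largest rises were taken among called genes that averaged 100 or more normalised counts in 1 of the groups and whose libraries did not overlap. Scube1, a secreted and membrane-bound signalling protein, was at 13, 10 and 14 normalised counts without Dox and at 105, 84, 139 and 105 with Dox, which gave a log2 fold change of 3.18 (SE 0.26, adjusted p = 7.83e-06). Il4ra, the alpha chain of the interleukin-4 receptor, went from 27, 31 and 69 to 252, 276, 327 and 357, or 3.09 (SE 0.28, adjusted p = 1.63e-05). Cacna1g, a T-type calcium channel, went from 20, 19 and 42 to 193, 131, 246 and 179, or 3.09 (SE 0.31, adjusted p = 3.47e-05). Before induction Scube1 was near the minimum of 10 normalised counts, and Il4ra and Cacna1g were above it. All 3 genes were higher in every induced library of both clones.

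Others of the 12 encode matrix proteins. Lama4, a laminin chain, was at 17, 16 and 19 normalised counts without Dox and between 93 and 120 with Dox (log2 fold change 2.67). Col6a2, a collagen VI chain, went from 12 to 23 up to 72 to 138 (2.75), and Hmcn1, a basement membrane protein, from 15 to 46 up to 72 to 252 (2.70). Hmcn1 lies on chromosome 1, where the clones differ, and its log2 fold change was 2.09 within C1ON3 and 2.27 within C2ON3. The rest were Tspan18, a tetraspanin (3.24), Faim2, an inhibitor of Fas-driven apoptosis (3.04), Ano1, a chloride channel (3.01), Itih5, of the inter-alpha-trypsin inhibitor heavy chains (2.96), the sorting nexin Snx31 (2.69) and the class I histocompatibility gene H2-Q7 (2.67). H2-Q7 belongs to a family of near-identical copies, so its reads could be split between them.

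The 12 largest falls, taken by the same rule, were led by Pdgfc. This ligand of the platelet-derived growth factor receptors was at 829, 822 and 542 normalised counts without Dox and at 86, 103, 98 and 112 with Dox, a fall of 2.87 on the log2 scale (SE 0.20, adjusted p = 3.8e-06). Maml2, a Notch co-activator, went from 197, 202 and 74 to 25, 26, 14 and 26, with a log2 fold change of -2.82 (SE 0.33, adjusted p = 8.89e-05). Ntn1, the axon guidance protein netrin-1, went from 535, 913 and 588 to 145, 204, 124 and 140, with -2.15 (SE 0.23, adjusted p = 4.99e-05). Pdgfc and Maml2 were less abundant in uninduced C2ON3 than in uninduced C1ON3, and both still fell below it in every induced library.

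Other falls in this group were Spna1, an erythroid spectrin (-2.59), the aspartic protease Napsa (-2.24) and Ripply1, a transcriptional repressor in somite formation (-2.16). The fatty acid transporter Slc27a2 (-2.13), the ryanodine receptor Ryr3 (-1.92), the carbonyl reductase Cbr3 (-1.85), the giant muscle protein Ttn (-1.84) and the connexin Gjb1 (-1.84) belonged to it as well. Slc27a2 was not called when either uninduced C1ON3 library was left out (adjusted p up to 0.0611). Slc7a11, the cystine transporter, rested on 1 library: it was at 65 and 72 normalised counts in uninduced C1ON3, at 694 in uninduced C2ON3 and between 33 and 43 with Dox. Its log2 fold change of -2.70 (adjusted p = 0.00902) was not called without the C2ON3 library (adjusted p = 0.0588).

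**Figure D3:**
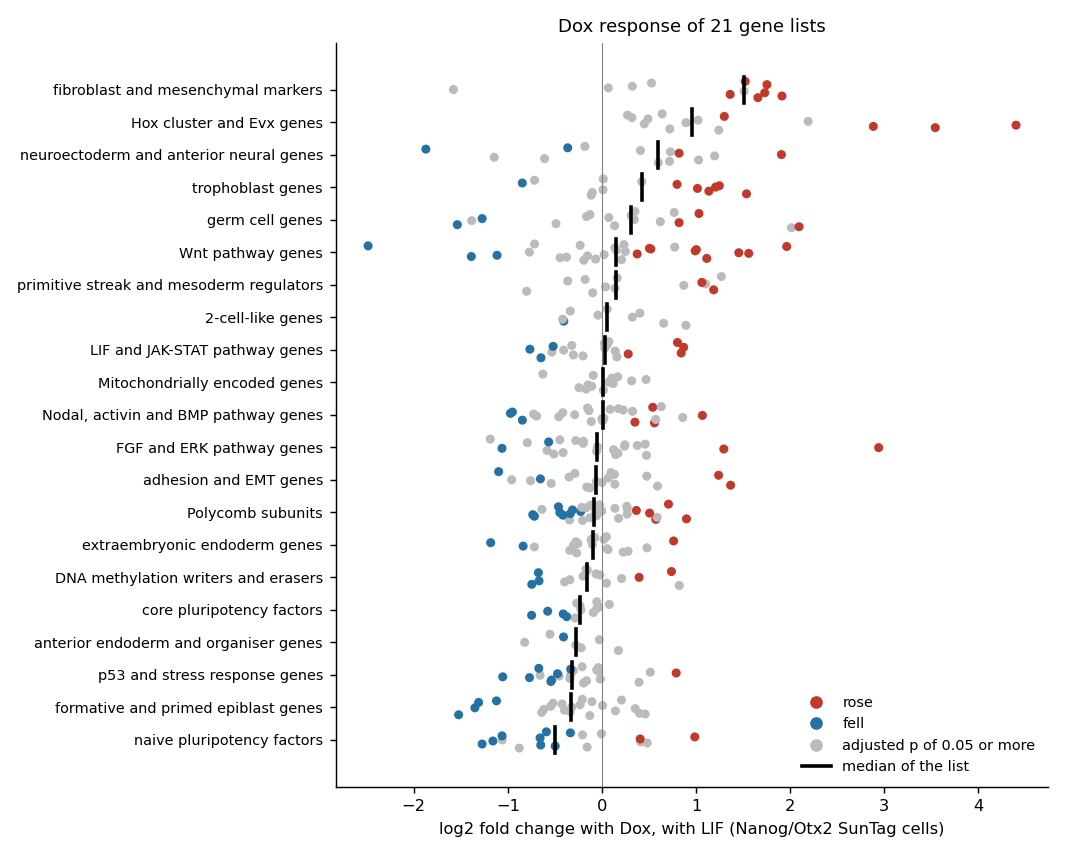
Log2 fold change with Dox, with LIF, of each tested member of the gene lists, one row of points per list, in red for risen, blue for fallen and grey for members that did not pass, with a black bar at the median of each list. The fibroblast and mesenchymal markers (median 1.51) and the Hox genes (0.96) lie to the right, and the naive factors (-0.50) to the left of the median of all genes (-0.01).

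The lists below were read against all tested genes, of which 12.9% rose and 10.0% fell with a median log2 fold change of -0.01. They were not compared with genes of like level. Among the 10% of genes with the highest level 1.09% rose and 24.7% fell, and among the 10% with the lowest 20.6% rose and 2.88% fell. Of 17 naive pluripotency factors, all tested, 8 fell and 2 rose, with a median of -0.50. Klf2, a Krüppel-like factor of the naive state, was at 3798, 4131 and 3694 normalised counts without Dox and at 1912, 2028, 1163 and 1261 with Dox (log2 fold change -1.27, SE 0.19, adjusted p = 4.39e-04). Zfp42 (Rex1), a marker of undifferentiated ES cells, went from 27969, 25132 and 27136 to 17768, 17653, 17612 and 17188 (-0.59, SE 0.13, adjusted p = 0.00483). In both genes every induced library lay below every uninduced one.

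Nr0b1 (Dax1), an orphan nuclear receptor that binds pluripotency factors, had a log2 fold change of -1.16 (adjusted p = 0.00735, 0.0501 without the first uninduced C1ON3 library), and the zinc finger factor Sall1 had -0.66 (adjusted p = 0.00288). Tcl1, Fbxo15, Jam2 and Tfe3 fell as well, and each of these lost its call without the first uninduced C1ON3 library (adjusted p up to 0.229 with 1 library left out). The 2 members that rose were Tbx3, a T-box factor of the naive network, from 3287, 2707 and 4083 to 7431, 5493, 7589 and 5657 normalised counts (0.99, SE 0.30, adjusted p = 0.0263, up to 0.119 with 1 library left out), and Prdm14, a repressor of differentiation genes (0.41, SE 0.14, adjusted p = 0.0422, up to 0.196). Leaving out the first or the second uninduced C1ON3 library left 3 fallen and 1 risen, or 5 fallen and 0 risen, 5 fell without either induced C2ON3 library, and the block gave 9 fallen and 4 risen.

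Several central members of that network did not pass the test. Esrrb was at 19756, 17725 and 19744 normalised counts without Dox and at 18084, 16111, 17605 and 15800 with Dox (log2 fold change -0.16, SE 0.09, adjusted p = 0.242). Klf4 had 0.48 (SE 0.24, adjusted p = 0.165) and was called when the clone was a block (adjusted p = 0.0402) and in C1ON3 alone, and Tfcp2l1 had -0.01 (SE 0.29, adjusted p = 0.994). The groups overlapped for each of these genes.

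Among 13 core pluripotency factors 4 fell and 0 rose, with a median of -0.23. Rif1, a chromatin and replication timing factor, went from 14722, 18175 and 13897 to 9351, 10949, 9843 and 11259 normalised counts (log2 fold change -0.58, SE 0.11, adjusted p = 0.00206). Dppa4, Gdf3 and Lin28a had -0.37, -0.75 and -0.41, with adjusted p from 0.0141 to 0.0172. Each lost its call when either uninduced C1ON3 library was left out (adjusted p up to 0.109). Pou5f1 had -0.09 (SE 0.08, adjusted p = 0.438) and Sox2 -0.06 (SE 0.18, adjusted p = 0.865). Without either uninduced C1ON3 library 1 member of the list fell, and without the first induced C2ON3 library 2 did.

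None of the formative and primed epiblast genes rose while Otx2, a member of that state, did. Of 21 listed symbols, tested as 22 identifiers, 0 rose and 4 fell, with a median of -0.33. Sox4, a SoxC factor, went from 1017, 1067 and 1046 to 449, 531, 427 and 493 normalised counts (-1.12, SE 0.12, adjusted p = 3.97e-05), and Lef1, a nuclear effector of Wnt signals, from 577, 622 and 389 to 262, 261, 139 and 187 (-1.35, SE 0.22, adjusted p = 7.89e-04). Sox11 had -1.31 (adjusted p = 0.00130) and the cyclin Ccnd2 -1.52 (adjusted p = 0.0124, 0.0557 without the second uninduced C1ON3 library). With the clone as a block 2 rose and 5 fell, and without the uninduced C2ON3 library 1 rose and 8 fell.

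The classical primed markers did not pass. Fgf5, a marker of the primed epiblast, was at 17, 9 and 0 normalised counts without Dox and at 15, 18, 22 and 4 with Dox (log2 fold change 0.14, adjusted p = 0.872). Pou3f1 (Oct6), which is listed under 2 identifiers between which reads may be split, had 0.01 (adjusted p = 0.992) under the abundant one. Dnmt3b, the de novo DNA methyltransferase, was at 10708 and 9310 in uninduced C1ON3 and 3639 in uninduced C2ON3, and at 6511 and 6329 and at 3914 and 3427 in the induced cells of these clones. Dnmt3b differed more between the clones than between the Dox groups, and its log2 fold change was -0.64 (SE 0.28, adjusted p = 0.113). It was called as lower in C1ON3 alone, without the uninduced C2ON3 library, and with a correction for GC content beside the clone block. Sox3, a SoxB1 factor, had -0.11 (SE 0.29, adjusted p = 0.830).

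Markers of other cell types were mostly too low to test or did not pass. Of 30 neuroectoderm and anterior neural genes, the later domain of Otx2, 13 were abundant enough to test, 2 rose and 2 fell (median 0.60). Ncam1, a neural adhesion molecule, went from 500, 634 and 463 to 1017, 1102, 826 and 809 normalised counts (0.82, SE 0.18, adjusted p = 0.00524), and Lhx2 rose from 4 or less to between 7 and 14, while Pax6 (-1.87, adjusted p = 0.0102, 0.0591 without the first uninduced C1ON3 library) and Tubb3 (-0.36, adjusted p = 0.0482, up to 0.191) fell. Of this list 0 fell without the first uninduced C1ON3 library and 1 or 2 without another. Of 7 tested anterior endoderm and organiser genes, of 14 listed, 1 fell, the Wnt antagonist Sfrp1 (-0.41), and 0 rose. Of 12 tested streak and mesoderm regulators, of 21, 2 rose, the T-box factor Eomes (1.19, SE 0.27, adjusted p = 0.00582) and Msx2 (1.06, adjusted p = 0.0287, up to 0.0847), and 0 fell, while T (brachyury), at 0 to 11 normalised counts without Dox and 7 to 20 with Dox, was too low to test.

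Of 20 tested extraembryonic endoderm genes 1 rose and 2 fell (median -0.10), led by the endocytic receptor Lrp2, from 2330, 3019 and 3268 to 1060, 1113, 1356 and 1446 normalised counts (-1.18, SE 0.12, adjusted p = 3.81e-05), and with 1 library left out 1 of the list fell, or 2 where that library was the second induced C1ON3 one. Of 13 tested trophoblast genes, of 16, 6 rose and 1 fell (median 0.42). The risen ones were the simple-epithelium keratins Krt18 (1.01, SE 0.23, adjusted p = 0.00625), Krt8 (0.80, adjusted p = 0.0123), Krt19 (1.21, adjusted p = 0.0384) and Krt7 (1.25, adjusted p = 0.0425), with the factors Gata2 (1.14, adjusted p = 0.0200) and Esx1, and the imprinted gene Peg10 fell. Only Krt18 kept its call whichever library was left out, and Krt19 lost it with each, so that the adjusted p of the others reached 0.0704 to 0.160. The defining trophoblast factors Cdx2 and Elf5 had means of 2.59 and 5.62 normalised counts with Dox and were too low to test. Without the second uninduced C1ON3 library 2 of these genes rose and 0 fell, and without the first uninduced C1ON3 or the first induced C2ON3 library 3 rose.

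Fibroblast and mesenchymal markers rose more often than they fell. Of 11 tested, of 15 listed, 6 rose and 0 fell, with a median of 1.51, and the block gave 7 and 0. Their summed level was 1620 to 1720 normalised counts without Dox and 2943 to 3271 with Dox. Col5a1, a fibrillar collagen chain, went from 246, 288 and 292 to 959, 755, 1024 and 847 (1.73, SE 0.15, adjusted p = 9.38e-06), and Pdgfrb, a receptor for platelet-derived growth factors, from 91, 91 and 120 to 307, 294, 339 and 359 (1.75, SE 0.21, adjusted p = 1.23e-04). Thy1 (1.52), Col1a1 (1.91), Acta2 (1.66) and Col1a2 (1.36) also rose, whereas the fibroblast markers Lum and Col3a1 were at 0 in the uninduced libraries and at means of 0 and 1.40 in the induced ones. Col1a2 was not called without some libraries (adjusted p up to 0.170). The tested markers can include those that passed the minimum only where they are high, and Acta2 was at 9, 22 and 1 estimated counts without Dox.

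Hox genes pattern the body axis. Of 41 listed Hox and Evx genes 14 were tested, 4 rose and 0 fell, with a median of 0.96, and the block gave 6 and 0. Without the first uninduced C1ON3 library 2 rose. The summed level of the list was 272 to 593 normalised counts without Dox and 600 to 790 with Dox, and Hoxc13, which did not pass, was already at 79.8, 80.5 and 204 without Dox. All 14 had a positive log2 fold change, and the tested ones include those that passed the minimum only where they are high. Hoxa13 was at 7, 3 and 0 normalised counts without Dox and at 74, 152, 84 and 80 with Dox, and Hoxa10 at 8, 4 and 0 and at 87, 87, 51 and 30. Their log2 fold changes were 4.40 (SE 0.53, adjusted p = 1.06e-04) and 3.54 (SE 0.54, adjusted p = 4.70e-04). Hoxa11 (2.88, adjusted p = 0.00996, 0.0698 without the first uninduced C1ON3 library) and Hoxd1 (1.30, adjusted p = 0.0248, up to 0.123) were called as well, and Hoxa11 rose to 55 and 80 in C1ON3 but to 16 and 13 in C2ON3.

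Germ cell genes split. Dazl, an RNA-binding protein of germ cells, was at 359, 407 and 667 normalised counts without Dox and at 1518, 1682, 1910 and 2650 with Dox (2.09, SE 0.33, adjusted p = 6.76e-04). Kit, the receptor of stem cell factor, rose by 0.82 (adjusted p = 0.00652), and Dmrt1, a transcription factor of testis and germ cells, fell from 672, 639 and 1023 to 197, 178, 311 and 345 (-1.54, SE 0.32, adjusted p = 0.00394). In all, 3 of 17 tested members rose and 2 fell (median 0.31), the second fall being Prdm1 (-1.27, adjusted p = 0.00926, 0.0592 without the first uninduced C1ON3 library). Without the second uninduced C1ON3 library 2 rose, and without the uninduced C2ON3 library 5 did.

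Among the ligands, receptors and effectors of signalling pathways, members changed in both directions. The list medians lay between -0.05 and 0.15, against -0.01 for all genes. Of 18 LIF and JAK-STAT genes 4 rose and 3 fell (median 0.03). Pim1, a kinase gene induced by Stat3, fell from 2863, 2117 and 2162 to 1581, 1373, 1201 and 1396 normalised counts (-0.77, SE 0.12, adjusted p = 7.35e-04), Jak1 rose by 0.28 (SE 0.07, adjusted p = 0.0144), and Socs3, the feedback inhibitor, did not pass (-0.32, SE 0.27, adjusted p = 0.424). Without either uninduced C1ON3 library 1 of these genes rose, without the uninduced C2ON3 library or either induced C1ON3 library 2 rose, and 1 to 3 fell with 1 library left out. Of 24 FGF and ERK genes 2 rose and 2 fell: the ligand Fgf2 rose from 4 or less to between 13 and 31, Fgf13 rose by 1.29 (adjusted p = 0.00429), and Fgf17 and the inhibitor Spred1 fell by 1.06 and 0.57 on the log2 scale (adjusted p = 0.0339 and 0.0363, each over 0.1 at most without 1 library). The block gave 3 risen and 6 fallen. The fallen FGF and ERK genes numbered 5 without the first uninduced C1ON3 library, 1 without the second, 3 without the second induced C2ON3 library and 0 without any of the others.

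Of 25 tested Nodal, activin and BMP genes 4 rose and 3 fell (median 0.01), with 5 and 6 under the block, and 2 rose without the second uninduced C1ON3, the first induced C1ON3 or the first induced C2ON3 library. Both ligands with a call went down: Nodal from 1493, 1659 and 1764 to 731, 901, 707 and 953 normalised counts (-0.97, SE 0.14, adjusted p = 3.45e-04), and Bmp4 from 425, 671 and 708 to 286, 353, 313 and 361 (-0.85, SE 0.17, adjusted p = 0.00353). Skil, a repressor of Smad activity and itself a target of the pathway, fell by 0.95 (adjusted p = 0.00175), and the receptor Acvr1b rose by 0.56 (adjusted p = 0.00522). Lefty1, the Nodal antagonist, was at 2327 and 1411 in uninduced C1ON3 and 190 in uninduced C2ON3, too spread for a call (adjusted p = 0.489). The BMP target Id1 had -0.46 (adjusted p = 0.404) and was called only when the clone was a block (adjusted p = 0.0322).

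Of 27 tested Wnt pathway identifiers 9 rose and 3 fell (median 0.15). The feedback inhibitors Nkd2, from 74, 63 and 74 to 172, 200, 226 and 162 normalised counts (1.45, SE 0.15, adjusted p = 3.98e-05), and Nkd1, from 45, 36 and 37 to 123, 87, 132 and 119 (1.56, SE 0.30, adjusted p = 0.00235), rose with the nuclear effector Tcf7 (0.52, adjusted p = 0.00237). The receptor Fzd2 and the ligand Wnt5a fell by 1.39 and 2.49 (adjusted p = 1.21e-04 and 3.63e-04), Wnt5a from 68 and 50 in uninduced C1ON3 but only from 14 in uninduced C2ON3, to between 7 and 10. The target gene Axin2 did not pass (0.21, SE 0.27, adjusted p = 0.627). Leaving out the second uninduced C1ON3 library left 5 risen and 2 fallen.

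Among chromatin regulators, 8 of 32 tested Polycomb subunits fell and 5 rose (median -0.08, with 10 and 5 under the block). Without the second uninduced C1ON3 library 4 fell and 3 rose, without the first 7 fell and 2 rose, and without the first induced C1ON3 or the second induced C2ON3 library 7 fell and 3 rose. The PRC2 subunits Ezh2, the methyltransferase, and Eed fell, Ezh2 from 5563, 5615 and 4893 to 3914, 4043, 3826 and 4124 normalised counts (-0.42, SE 0.06, adjusted p = 4.46e-04) and Eed from 7853, 9000 and 8268 to 4397, 5331, 4887 and 5524 (-0.72, SE 0.12, adjusted p = 9.26e-04). Jarid2, a PRC2 cofactor, fell by 0.74 (SE 0.18, adjusted p = 0.0104), the PRC1 reader Cbx2 rose by 0.57 (adjusted p = 0.00205), and neither Suz12 (-0.03, SE 0.10, adjusted p = 0.887) nor the PRC2 cofactor Phf19 (-0.17, SE 0.43, adjusted p = 0.820) passed. Of 15 DNA methylation genes 3 fell and 2 rose, with opposite signs for 2 dioxygenases: Tet1 from 14548, 18717 and 16957 to 10761, 9552, 10432 and 10682 (-0.68, SE 0.13, adjusted p = 0.00222) and Tet3 from 209, 296 and 333 to 450 ± 50.8 (SD, n = 4; 0.74, SE 0.16, adjusted p = 0.00536). Without either uninduced C1ON3 library 1 of these 15 rose, and 2 fell without the first of them or without either induced C2ON3 library.

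Of 22 p53 and stress response genes 7 fell and 1 rose (median -0.32, with 9 and 2 under the block, with 4 and 0 without the first uninduced C1ON3 library, and 3 and 0 without the second). Ddit3 (Chop), a factor of the integrated stress response, went from 498, 524 and 514 to 262, 295, 190 and 231 normalised counts (-1.05, SE 0.21, adjusted p = 0.00330), Atf4, its upstream factor, had -0.54 (adjusted p = 0.00386), and Bbc3 (Puma), a p53 target that promotes apoptosis, had -0.53 (adjusted p = 0.00380). The other fallen members were Hmox1, Trib3, Sesn2 and Chac1. Cdkn1a, Mdm2, Ccng1 and Bax, also on this list, were not called in the main fit. None of 13 mitochondrially encoded genes rose, and 0 of 9 tested 2-cell-like genes did, although 1 of the latter was called as risen by DESeq2, with the block and without the uninduced C2ON3 or either induced C1ON3 library. Among the genes listed as 2-cell-like 1, Eif1a, fell (-0.41, adjusted p = 0.0143, 0.0800 at most without 1 library). Eif1a was at 13660 and 16396 estimated counts in uninduced C1ON3 and is also counted among the fallen genes with the stem Eif below. Of 19 adhesion and epithelial-mesenchymal genes 2 rose (Cdh5 and Snai2) and 2 fell (Fn1 and Zeb2), with a median of -0.06, and each of the 4 lost its call without 1 library (adjusted p up to 0.128). Of this list 0 rose without either uninduced C1ON3 library, and 4 fell without the uninduced C2ON3 or the first induced C1ON3 library and with the block. Cdh1, the epithelial cadherin, had -0.13 (SE 0.12, adjusted p = 0.472).

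Some of the larger groups of genes that share a symbol stem, picked after their values were seen, moved mostly one way. Their tested members can include genes that passed the minimum only in the group where they are high. Of 35 tested collagens (Col) 20 rose and 1 fell (median 1.31), of 21 keratins (Krt) 13 rose and 0 fell (1.35), of 12 calcium channel subunits (Cacna) 8 rose and 0 fell (1.20), of 15 metalloproteases (Adamts) 8 rose and 1 fell (1.03), and of 10 integrin alpha chains (Itga) 5 rose and 0 fell (1.07). The collagen that fell was Col18a1, the most abundant of those named here, from 8434 ± 800 (SD, n = 3) to 5754 ± 422 (SD, n = 4) normalised counts. Of 58 genes with the symbol stem Eif, many of them translation initiation factors, 16 fell and 2 rose (median -0.16). Of 38 helicases (Ddx) 10 fell and 0 rose (-0.22), and of 8 chaperonin subunits (Cct) 4 fell and 0 rose (-0.27). Eif2s2, for example, went from 25994 ± 2097 (SD, n = 3) to 17700 ± 669 (SD, n = 4). The signs of these medians were the same with size factors and with a correction for GC content. These groups were not compared with genes of like level either, and among the 10% of all tested genes with the highest level 24.7% fell. Without the first or the second uninduced C1ON3 library 4 or 6 Eif, 6 or 6 Ddx and 2 or 3 Cct genes fell, and 12 or 9 keratins, 5 or 5 Cacna genes and 4 or 4 Adamts genes rose. Without the first induced C1ON3 library 5 Cacna genes rose, and without the first induced C2ON3 library 10 Eif genes fell.

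**Figure D4:**
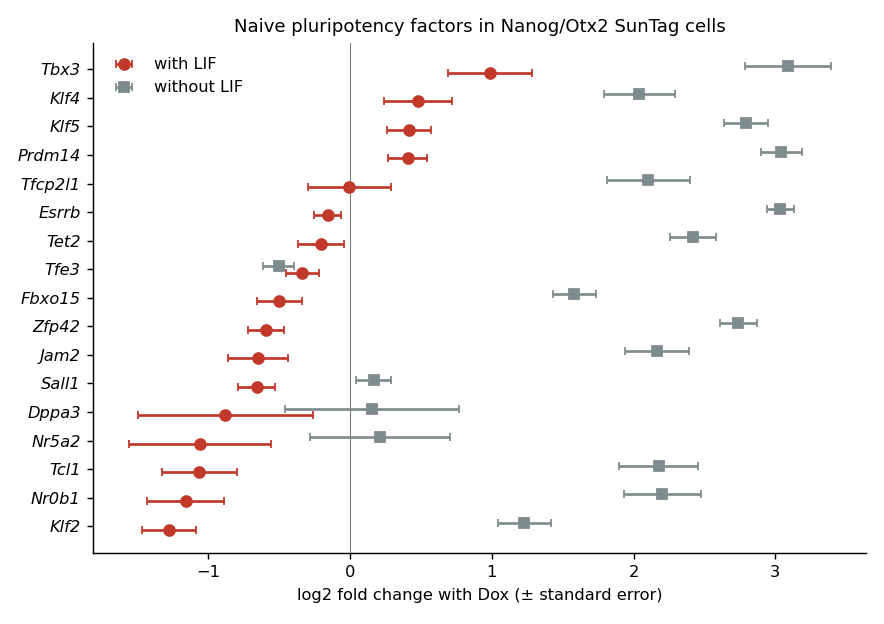
Log2 fold change with Dox of the 17 naive factors in Nanog/Otx2 SunTag cells, with LIF (red circles) and without LIF (grey squares), with bars of 1 standard error. The values without LIF lie to the right of those with LIF for every factor but Tfe3.

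The presence of LIF changed the response to Dox for 1514 genes (9.7%), of which 710 (4.55%) responded more positively with LIF and 804 (5.15%) more negatively. With the clone as a block this count was 2887, and without the second uninduced C1ON3 library with LIF it was 870. No library entered both responses. Of the 17 naive factors 14 had a lower response with LIF and 0 a higher one. Without LIF 13 of them rose and 1 fell, with a median of 2.17. Esrrb, at 712, 638, 562 and 720 normalised counts without LIF or Dox, rose to 4925, 5388, 5808 and 4914 (3.03), while with LIF it had -0.16, and the difference was -3.19 (adjusted p = 3.50e-09).

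For some naive genes the direction turned. Zfp42 rose by 2.74 (log2) without LIF and fell by 0.59 with LIF, a difference of -3.33 (adjusted p = 8.74e-08). Klf2 rose by 1.23 without LIF and fell by 1.27 with LIF, a difference of -2.50 (adjusted p = 7.60e-05). Nr0b1 rose by 2.20 and fell by 1.16, with a difference of -3.36 (adjusted p = 1.33e-04). In each of these genes the induced cells without LIF still held less of the transcript than the uninduced cells with LIF.

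In the other direction, some genes responded more positively with LIF. Abcc8, the sulfonylurea receptor of a potassium channel, was at 4.02, 4.53 and 4.63 normalised counts without Dox and at 74.1, 39.2, 99.2 and 69.7 with Dox when LIF was present, and without LIF it was between 82 and 138 in all libraries, with or without Dox. Its responses were 4.03 and 0.08 (difference 3.95, adjusted p = 1.48e-04). Calcr, the calcitonin receptor, rose by 2.23 with LIF and fell by 1.20 without LIF (difference 3.43, adjusted p = 9.97e-04), and its level without LIF, from 57 to 223, was higher than with LIF, from 7 to 59. Of the 2015 risen genes 605 (30.0%) also rose with Dox without LIF, which were 34.7% of those risen there, and 354 of the 1562 fallen (22.7%) also fell without LIF, or 36.9% of those fallen there. Over all tested genes 11.2% rose and 6.15% fell without LIF.

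A separate set of libraries, from the parent Nanog SunTag clones, shows what LIF withdrawal does without Dox. Of the risen genes tested there, 33.0% were higher after LIF withdrawal and 14.6% lower, against 20.5% and 21.4% of all genes tested in both sets and 20.2% and 21.3% of all tested in that set. Of the fallen genes 15.6% were higher and 30.9% lower.

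**Figure D5:**
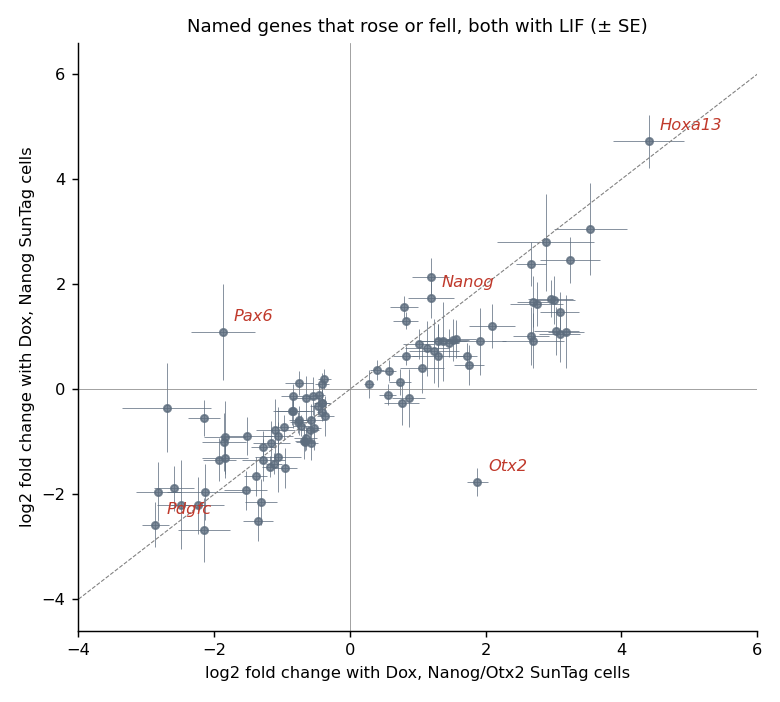
Log2 fold change with Dox, with LIF, in Nanog/Otx2 SunTag cells (x axis) and in Nanog SunTag cells (y axis), for the 95 named genes that rose or fell and were tested in both, with bars of 1 standard error and a dashed line where both are equal. The sign is the same for 87 of the 95, and Otx2 lies at 1.88 and -1.76.

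Cells with the Nanog guide alone gave the response to Nanog without induced Otx2. In these, Nanog was at 29487, 23345 and 21941 normalised counts without Dox and at 93813 and 75226 with Dox, and Otx2 was at 908, 704 and 740 without Dox and at 308 and 166 with Dox. Otx2 thus fell by 1.76 on the log2 scale (adjusted p = 0.0198) where only Nanog was targeted and rose by 1.88 where both were, a difference of 3.63 (adjusted p = 3.50e-07). Nanog had 1.74 and 1.19, and this difference did not pass (adjusted p = 0.757).

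The number of genes called as different between the 2 guide sets depended on single libraries. The test called 6 of 16210 (0.037%), 4 higher with both guides (0.0247%) and 2 lower (0.0123%), with 1726 at an unadjusted p under 0.05 and 54 called by DESeq2. It called 17 with the clone as a block, 937 without the induced C2 library of the Nanog cells, 44 without the uninduced C1 library, 3 without the first uninduced C2 library and 1 without the induced C1 library. Kif21a, a kinesin, was at 209, 202 and 120 normalised counts without Dox and at 699, 573, 618 and 535 with Dox in the Nanog/Otx2 cells, and at 153, 134 and 86 and at 56 and 117 in the Nanog cells. Its responses were 1.71 and -0.48, and they differed by 2.16 (adjusted p = 0.0184). It was also higher in Nanog/Otx2 cells without LIF, where Dox raised it by 1.06 from between 963 and 1272.

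Where Nanog alone was induced, the log2 fold change was positive for 84.3% of the genes that rose with both guides, for 17.8% of those that fell and for 47.4% of all. Fewer passed the test there: 66 genes rose (0.422%) and 22 fell (0.141%) of 15624, with 2227 at an unadjusted p under 0.05. Those cells had 2 induced and 3 uninduced libraries. Among named genes, Pdgfc had -2.58 in the Nanog cells (adjusted p = 0.0234), Lama4 2.39 (0.0337), Hoxa13 4.72 (0.0141), Eomes 2.14 (0.0234) and Sox4 -1.42 (0.0159), and their differences between the guide sets did not pass (adjusted p from 0.431 to 0.920). By the study's methods the Nanog/Otx2 lines were made from the Nanog SunTag clones, so the 2 sets share that origin. The Nanog libraries carry another prefix in their column names than the libraries here. In the Nanog libraries with LIF, mitochondrially encoded genes took 8.48% to 12.9% of the counts, against 4.82% to 5.98% here. The part of these points in the result was not tested.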

How the data were processed

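RNA was measured in mouse ES cells by stranded, single-end sequencing of 65-base reads. The authors aligned reads to mm9 with STAR and deposited estimated counts per Ensembl gene from RSEM, run as stranded (versions are not given in the sources used here, apart from CASAVA 1.8 in the labels). A second deposited table holds the same counts divided by DESeq2 size factors over the 35 libraries, a signal called normalised counts here and used for levels only. Samples were grouped by their labels. Estimated counts were rounded and tested with edgeR 4.0.16 (R 4.3.3; TMM, glmQLFit, glmQLFTest, Benjamini-Hochberg adjusted p under 0.05 over all genes tested), for genes at 10 or more normalised counts in every library of 1 or more conditions.

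As in the study's methods, all 15 Nanog/Otx2 libraries entered 1 fit with LIF, Dox and an interaction as its terms. The difference between guide sets was fitted over 26 SunTag libraries, and that between clones over 7. A log2 fold change is that of the fit, with Dox over without Dox, and SE is its standard error. Alternatives were DESeq2 1.42.0, its size factors in edgeR, other filters, a block, fewer libraries and a correction for GC content. Libraries of the same clone come from the same cell line, so the clone pairs the samples. The deviations of same-clone libraries from their group means correlated at 0.141 to 0.582 in 6 pairs with LIF (median 0.377), and those of different clones at -0.539 to -0.204. No libraries were identical, and the chi-square per degree of freedom between replicates was 9.13 to 51.7, so none was counted as a duplicate.

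Members and gene lists were chosen with earlier results of these data known. The genes named are the targets, the 12 largest changes in each direction (100 or more normalised counts on average in 1 of the groups, no overlap, a proper symbol), up to 4 called members of each list by p, 18 members named whether called or not, and the 5 largest differences per direction in each test of a difference. Other members named (Tbx3, Tcl1, Fbxo15, Jam2, Tfe3, Esx1, Krt19, Krt7, Cdx2, Elf5, Acta2, Col1a2, Lum, Col3a1, Tcf7, Axin2, Jarid2, Suz12, Cdh1, Hoxc13, Col18a1, Eif2s2, Trib3, Sesn2, Chac1, Cdkn1a, Mdm2, Ccng1, Bax) were chosen after their values were seen, and so were the groups by symbol stem. List symbols that matched no row, such as Map2 and Sox1, were not analysed here. Guide sites were located in the mm9 genome from the guide oligo sequences and annotated with GENCODE vM1. The scripts were tested on simulated counts.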

Additional observations from a re-analysis of the deposited data

Results flagged for a closer look

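The response to Dox differed between cells with and without LIF, by the test of the difference itself (edgeR's quasi-likelihood test, adjusted p under 0.05), for these named genes, each given as the log2 response with LIF minus that without. It was more positive with LIF for Abcc8 (3.95), Shisa6 (3.52), Chst1 (3.45), Calcr (3.43), Pde4b (3.18), Plat (1.57) and Otx2 (1.02). Shisa6 and Pde4b were at means of 7.07 and 5.8 normalised counts in the induced cells with LIF. It was more negative with LIF for Col14a1 (-4.54), Gjb1 (-4.13), Inhbb (-3.95), Notum (-3.94), Lgals3 (-3.59), Nr0b1 (-3.36), Zfp42 (-3.33), Ryr3 (-3.17), Fgf17 (-2.80), Ccnd2 (-2.63), Klf2 (-2.50), Prdm1 (-2.21), Nanog (-2.0), Bmp4 (-1.90), Tubb3 (-0.79) and Dppa4 (-0.71). Col14a1, Inhbb, Notum and Lgals3 did not pass with LIF alone and rose without LIF, by 3.85, 3.23, 3.17 and 2.65.

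The response with LIF differed between Nanog/Otx2 and Nanog cells for Otx2 (3.63), Kif21a (2.16) and Rpl36a-ps3 (-6.27). Rpl36a-ps3 is a pseudogene row that shares sequence with its parent gene, so its reads are uncertain.

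Between C2ON3 and C1ON3 the response differed for mmu-mir-703 (14.17), Ppp1r2-ps4 (11.20), Aass (3.00), Rpl10-ps1 (-15.18), Slc24a5 (-10.65), Acat3 (-7.16), Rpl13-ps1 (-7.07) and Gadl1 (-6.39). C2ON3 without Dox is 1 library, so these differences rest on it, and the large values come from groups at or near 0 and are no measure of size.

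Among the 4 induced libraries with LIF, 1 library lay apart from the other 3 by Dixon's ratio of gap to range for Gata2 (0.946), Sox3 (0.920), Acvr1b (0.914), Maml2 (0.888), Fgf2 (0.874), Hoxa13 (0.871) and Mbd2 (0.869). Chance flags about 1 in 20 such groups, and 130 genes were examined. In Hoxa13 the high value was 152 normalised counts in a C1ON3 library, against 74 to 84 in the others.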

How the results depend on the processing

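The main limits are the 3 uninduced libraries, of which C2ON3 gave 1 at 6107512 counts, and the lack of induced cells without guides. The Nanog cells are the parent clones, and their libraries carry another prefix in the column names. The main result, 3577 calls, went to 5831 with the clone as a replicate block, to 6401 and 6519 with the clone and its label or column number as the block, to 5819 with GC correction and the clone block, and to 996 in C2ON3 alone, where fewer samples entered. Column number and GC content were added after seeing the data. The pairing by clone changed no call of a named gene other than those of Klf4 and Id1, which it added, and a block by clone and number also lost Plat. The block by clone and column number also added Lefty1, and that with GC correction added Esrrb, Dnmt3b and Id1 but not Klf4. Leaving out 1 library gave 1962 to 4036, with 2157 and 1962 without the first and second uninduced C1ON3 library. DESeq2 called 4196, and the other settings run gave 2936 to 4101.

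For the difference by LIF (1514 calls) the blocks gave 2887 (clone), 3407 (clone and number), 3331 (clone and column number) and 3005 (GC correction and clone), and leaving out 1 library gave 870 to 1847, the lowest without the second uninduced C1ON3 library with LIF. For the difference between guide sets (6 calls), DESeq2 gave 54, the clone block 17 and the 12 libraries with LIF alone 1. Leaving out 1 library gave 1 to 937: 44 without the uninduced C1 library, 1 without the induced C1 library, 3 without the first uninduced C2 library and 937 without the induced C2 library, which leaves 1 induced Nanog library with LIF, assumed to vary like the rest. For the difference between clones (35 calls) DESeq2 gave 112 and no filter 412, and leaving out 1 library gave 9 to 33, namely 22 and 19 without the second uninduced and second induced C1ON3 library and 9 and 16 without the first and second induced C2ON3 library. The cause of these shifts was not tested.

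Of 98 called named genes 0 lost their call with the clone block, 1 with DESeq2 (Plat), 2 with size factors (Tubb3, Hnf4a), 2 with GC correction (Mbd2, Eif1a), 6 without a filter, 2 with another filter, 7 with the 7 libraries alone, 9 in C1ON3 alone, 51 in C2ON3 alone and 4 to 22 with 1 library left out. No called named gene changed sign in these settings. Genes without a call did. In C2ON3 alone Pou5f1 had 0.0105, Dnmt3b 0.0735 and Lefty1 1.27, and in C1ON3 alone Sox3 had 0.20, Phf19 0.16 and Tfcp2l1 0.0099. Tfcp2l1 had 0.0276 without a filter, 0.0383 with GC correction and 0.0182 with 7 libraries. Pou3f1 (ENSMUSG00000090125) had -0.0258, -0.0735 and -0.0358 with the clone, clone and number, and clone and column number as a block and -0.0335 with GC correction and the clone block, and Phf19 had 0.0288 with clone and number. With 1 library left out the ranges were -0.13 to 0.0022 for Sox2, -0.15 to 0.29 for Tfcp2l1, -0.21 to 0.74 for Fgf5, -0.28 to 0.18 for Pou3f1, -0.27 to 0.14 for Sox3 and -0.55 to 0.15 for Phf19.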

Other observations

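The motif TAATCC, a sequence bound by Otx2-type homeodomains, was searched on both strands from 250 bases before to 50 after each RefSeq gene start (GRCm38.p6 promoter table). It was present in 7.06% of all 32851 promoters, in 5.58% of 13162 promoters of tested genes, in 4.91% of 1915 promoters of genes that rose and in 5.72% of 1399 of genes that fell. A match is a description of these letters in this window.

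Over 14227 tested genes with a GC content, the log2 fold change with Dox correlated with GC at a Spearman rho of 0.205, across genes, which are not independent replicates. A correction for GC gave 2027 risen and 1574 fallen genes.

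On the remaining chromosomes, the median log2 fold change lay between -0.12 on chromosome 13 and 0.02 on chromosome 19. On chromosome 1 the median level in each library, over genes with a mean of 100 or more normalised counts, relative to the mean of the uninduced libraries and less the median of all genes, was -0.18 and -0.17 in uninduced C1ON3, 0.35 in uninduced C2ON3, -0.19 and -0.18 in induced C1ON3, and 0.34 and 0.38 in induced C2ON3.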
